A study of Mus musculus with 2 samples.

Results

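Laminins, the proteins that build them into basement membranes, and the integrin receptors that bind them were followed in newborn mouse ureters in which the SHH signal was blocked for 18 h. The genes were those on a list of 36 names found as the gene name of a non-control probe on both arrays: 10 laminin chains, 5 basement membrane linkers (Nid1, Nid2, Hspg2, Agrn and Dag1), Fn1 and Tnc, 12 integrin alpha subunits and 7 integrin beta subunits. All 36 were present, with 51 probes, among 30011 named genes on the arrays. The brightest probe over the 4 channels stood for each gene, and this probe was above background in the control of both arrays for all 36 members. All 36 were among the 19398 genes tested, those whose probe was above background in control or in cyclopamine on both arrays.

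Basement membranes are thin sheets of extracellular matrix that underlie epithelia and surround muscle cells and vessels. Laminins are cross-shaped trimers of an alpha, a beta and a gamma chain that polymerise at the cell surface, and nidogens, perlecan and agrin tie this polymer to collagen IV and to cell receptors. Integrins are alpha-beta heterodimers whose alpha subunit largely sets the ligand, and the beta subunit connects to the cytoskeleton through talin and kindlin. In the ureter, a basement membrane separates the urothelium, which secretes SHH, from the lamina propria and smooth muscle, whose cells respond to it.

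The samples were ureters of wild-type NMRI mice taken at postnatal day 0 and kept in explant culture. Treated pools received 10 µM cyclopamine, a plant alkaloid that binds and blocks the SHH transducer SMO, and control pools received DMF at a dilution of 1 in 1000. Each of 2 two-colour Agilent arrays carried a cyclopamine pool against a control pool of the same sex, females on replicate 1 (cyclopamine in red) and males on replicate 2 (cyclopamine in green), and each pool held several ureters. Sex, dye orientation and replicate number cannot be told apart. The labels are not uniform on the agent: the treated channel is called IWP-2, an inhibitor of WNT secretion, in its source name and cyclopamine everywhere else, and it was taken to be cyclopamine.

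All values are processed signals, which are background-subtracted and dye-balanced within an array but not brought to a common scale between arrays: control signals had a 75th percentile of 3338 on replicate 1, against 628 on the other array. Every ratio is the log2 of cyclopamine over control, so that 0 is no difference and -1 is a signal 2 times lower. The median ratio of all tested genes was 0 on both arrays. The SHH target genes Gli1, Ptch1 and Hhip were lower on both arrays, with Gli1 at -1.83 and -2.09, Ptch1 at -1.13 and -1.49, and Hhip at -0.31 and -1.99 on replicates 1 and 2. Defining genes of the tissue were well above background, among them the uroplakins of the urothelium and Acta2 and Myh11 of smooth muscle, whereas the kidney genes Umod, Slc12a1 and Nphs1 were above background in no channel and Aqp2 and Lrp2 were dim.

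The arrays read each gene through probes of 60 bases. Probe sequences are shown for 3 integrins because the sequence places the measurement in the coding part of the transcript. The Itga4 probe is the dimmer of 2 for this gene and crosses an intron (mm9 chr2:79153985-79155115, plus strand). The Itgb1 probe is the brightest for the shared beta subunit and also crosses an intron (mm9 chr8:131250081-131255976, plus strand), and its capitals mark the codons of 2 NPxY motifs of the cytoplasmic tail, the docking sites of talin and kindlin. The Itga2 probe (mm9 chr13:115626714-115626773, minus strand) has in capitals the codons of GFFKR, the motif just inside the membrane that alpha subunits share.
Itga4: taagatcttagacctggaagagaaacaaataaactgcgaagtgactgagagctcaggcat
Itgb1: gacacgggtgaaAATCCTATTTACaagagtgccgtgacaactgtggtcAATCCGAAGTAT
Itga2: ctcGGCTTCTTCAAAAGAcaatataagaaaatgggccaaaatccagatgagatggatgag

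Itga4 was lower in cyclopamine-treated ureters, and no other member passed the limma test in either direction. Of 36 members, 1 was called lower (background 0.866% of tested genes) and 0 were called higher (background 0.438%) by limma with Benjamini-Hochberg adjustment over all 25975 probes. At an unadjusted limma p under 0.05, 2 members were lower (background 4.81%), a share near the background, and 7 were higher (background 4.24%). The study's own rule, as applied here, asks each array for a control signal over 100 and for a 1.5-fold change that runs the same way on the other array. Under it 0 of 33 members bright enough were lower (background 0.63%) and 1, Lama1, was higher (background 0.212%). No member changed by 1.5-fold in opposite directions on the 2 arrays (background 0.124%).

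The arrays differed in how the members stood. On replicate 1 the median member ratio was 0.69, and 34 of 36 members were above 0 (9653 of 19398 tested genes). On that array 20 members were at least 1.5-fold higher (background 8.48%). On replicate 2 the median was -0.06, and 20 members were below 0 (9710 of 19398 tested genes), a share near that of all genes. Of these, 3 members, Itga4, Lamc3 and Lama2, were at least 1.5-fold lower (background 3.05%). Across both arrays 16 members were higher on each (background 28.6%), 2 were lower on each (background 28.9%), and 18 were higher on replicate 1 and lower on replicate 2 (background 21.1%). These 18 had the stronger signal in the red channel of both arrays. The 4 spots of a probe varied little, with a median SD of 0.0265 on replicate 1 and 0.0309 on replicate 2 on the log2 scale, a technical spread that does not hold the difference between pools.

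**Figure D1:**
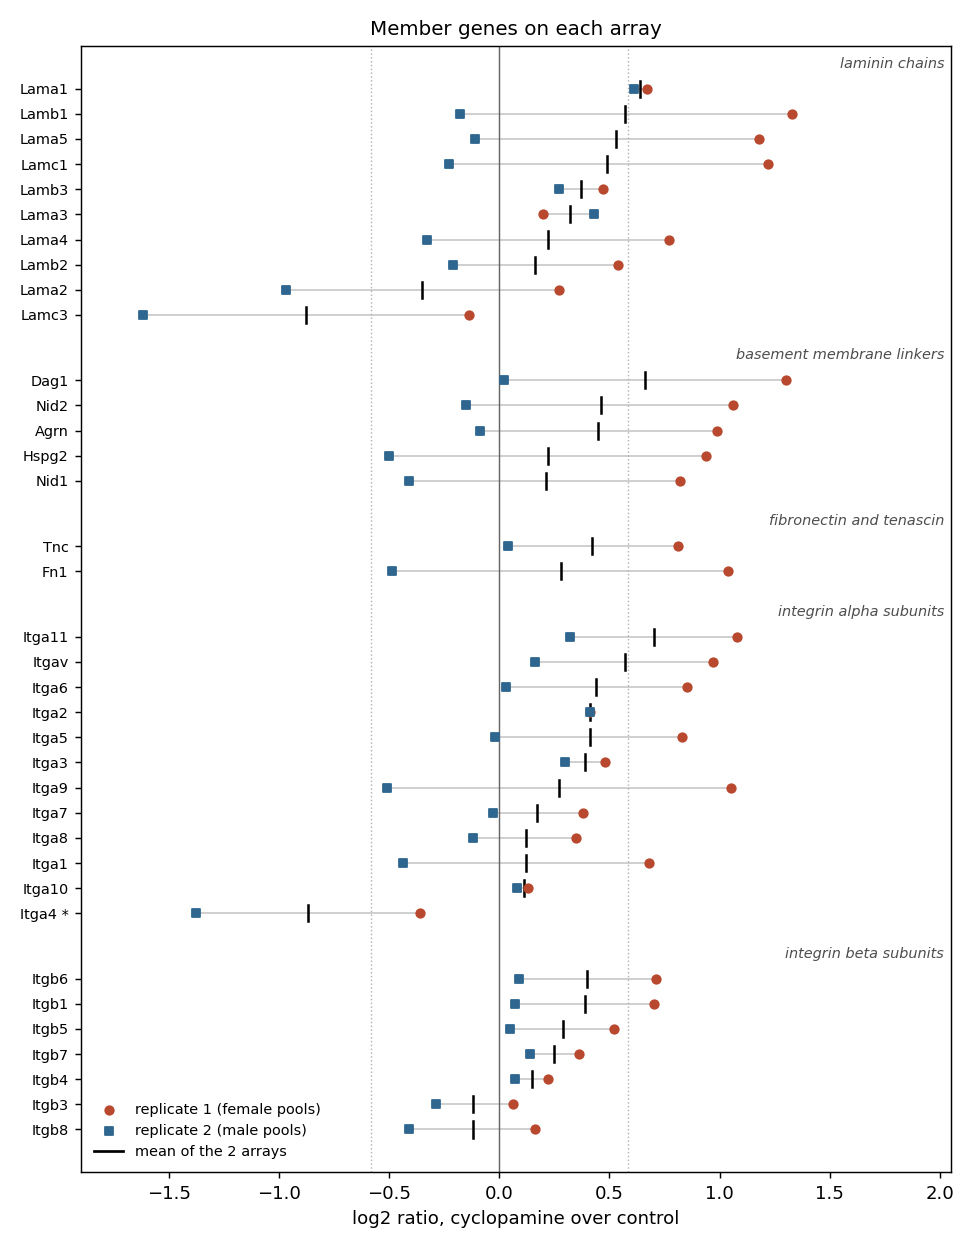
Log2 ratio of cyclopamine over control (horizontal axis) for the 36 members, by group. Circles are replicate 1 (female pools), squares are replicate 2 (male pools) and black bars are their mean. Dotted lines mark 1.5-fold, and the star marks the limma call for Itga4. Above 0 lie 34 circles (9653 of 19398 tested genes on replicate 1), and below 0 lie 20 squares (9710 of 19398 on replicate 2).

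**Figure D2:**
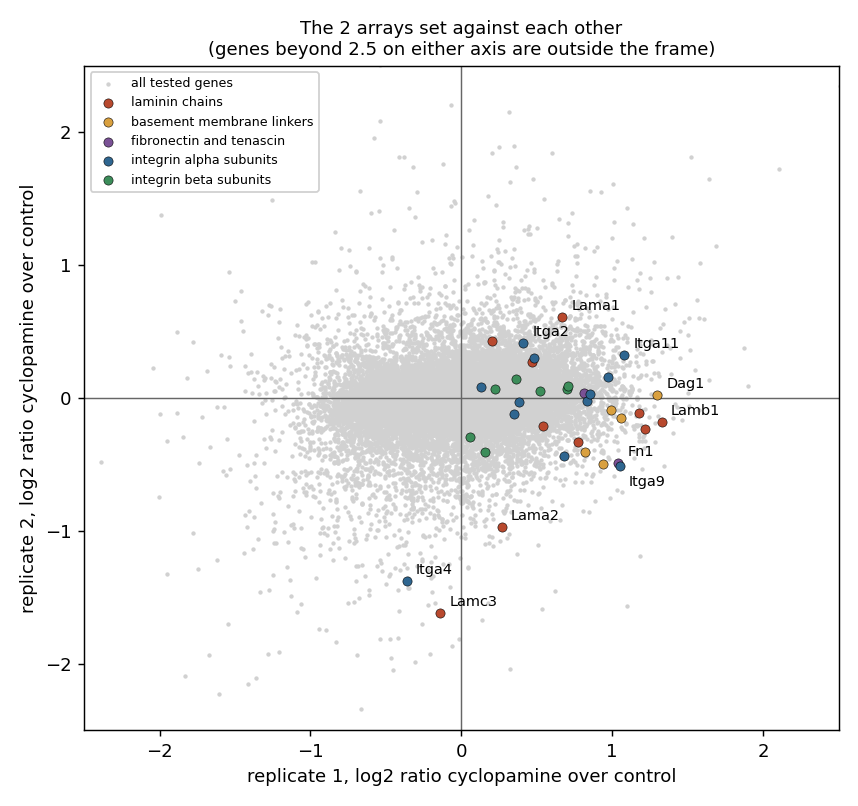
Log2 ratios on replicate 1 (horizontal axis) against replicate 2 (vertical axis) for 19398 tested genes in grey and the 36 members in colour by group. Most members lie to the right of 0 and near 0 on the vertical axis, with Itga4, Lamc3 and Lama2 far below it and Lama1 above it.

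Itga4 encodes the alpha4 subunit, which pairs with beta1 or beta7 and binds fibronectin and VCAM1. Its brightest probe (mm9 chr2:79173193-79173252, plus strand) had a processed signal of 4728 in control and 3689 in cyclopamine on replicate 1, and of 1119 and 431 on replicate 2. The cyclopamine signal was the lower of the pair on each array, by much more on replicate 2. The log2 ratios were -0.36 and -1.38, with a mean of -0.87 ± 0.72 (SD, n = 2 arrays), a 1.82-fold decrease (limma, SE 0.24, adjusted p = 0.0476). The dimmer coding probe shown above had ratios of -0.48 and -0.63, from signals of 34.5 in control and 24.7 in cyclopamine on replicate 1. That probe did not pass the test (limma, adjusted p = 0.344). The call for the bright probe lay close to the limit of 0.05, and it was lost without the filter on dim probes (adjusted p = 0.0526), with another background correction (normexp with offset 50, adjusted p = 0.184), with the values of the series table (adjusted p = 0.556) and with the 4 channels taken as separate samples (adjusted p = 0.991). The mean lay between -0.97 and -0.85 in the 7 alternatives with a test, and at -0.71 when both probes were averaged. An exact permutation of the signs of 2 arrays cannot give a p below 0.5.

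The partners of alpha4 and its ligands Vcam1 and Fn1 were not lower on both arrays. Itgb1, the common beta subunit, was at 0.70 and 0.07, and Itgb7, the other partner, was at 0.36 and 0.14. Vcam1 was at 0.74 and -0.47 and Fn1 at 1.04 and -0.49, each higher on replicate 1 and lower on replicate 2, and neither passed the test (limma, adjusted p = 0.898 and 0.765). Madcam1, a ligand of alpha4beta7 in gut vessels, was lower on both, at -0.42 and -0.12, and did not pass it (limma, adjusted p = 0.743). Itga9, the alpha subunit closest in structure to alpha4, was at 1.05 and -0.51. In whole-ureter RNA, fewer cells of a type and less RNA per cell cannot be told apart. Aldh1a2, the marker of lamina propria fibrocytes, was lower on both arrays at -0.62 and -0.65. The summed signal of 6 smooth muscle markers went from 304816 to 295510 on replicate 1 and from 84442 to 53314 on replicate 2. The part of either in the Itga4 ratio was not tested.

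**Figure D3:**
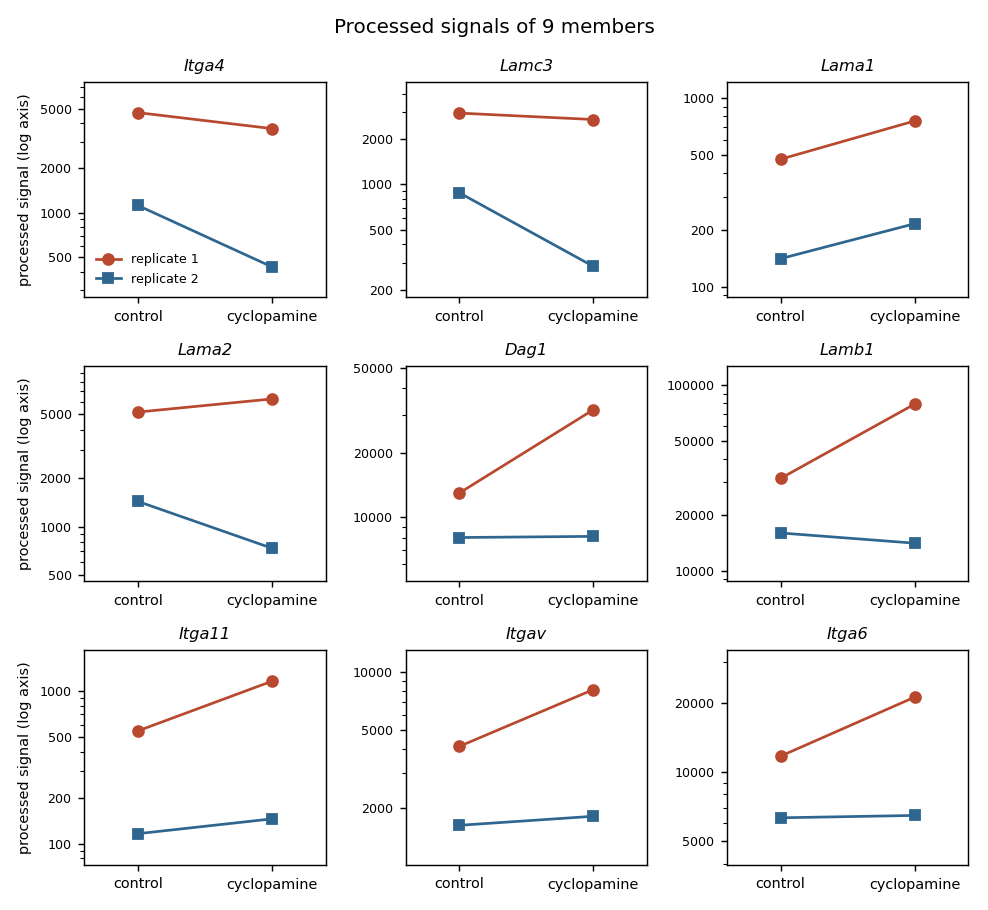
Processed signal (vertical log axis, each panel with its own range) in control and cyclopamine channels for 9 members. Circles are replicate 1 and squares replicate 2; lines join the pools of an array, and the lines of Itga4 and Lamc3 slope down on both, that of Lama1 slopes up on both, and those of Dag1 and Lamb1 slope up on replicate 1 and are nearly level on replicate 2.

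Among the laminin chains, Lama1 had the highest mean ratio and Lamc3 the lowest, and neither passed the limma test. Lama1 encodes alpha1, the chain of the early embryonic laminin-111. Its signal went from 474 to 756 and from 141 to 216, giving ratios of 0.67 and 0.61 and a mean of 0.64 ± 0.04 (SD, n = 2 arrays; limma, adjusted p = 0.211). It passed the study's rule on the strength of these 2 ratios but fell out of it when the control limit was raised to 200, when the fold limit was 2, with either normexp correction, with the series table and with the gene length trend removed.

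Lamc3 encodes gamma3, a chain of several less common laminins. Its signal went from 2965 to 2688 on replicate 1 and from 878 to 285 on replicate 2. The difference lay almost wholly on replicate 2, with ratios of -0.14 and -1.62, a mean of -0.88 ± 1.05 (SD, n = 2 arrays) and an adjusted p of 0.0589 by limma. It crossed the limit without the filter on dim probes (adjusted p = 0.0452), with an intensity trend in the prior (adjusted p = 0.0124) and with the gene length trend removed (adjusted p = 0.0137). Lama2, the alpha chain of muscle and nerve laminin-211, was also lower on replicate 2 and not on replicate 1. Its signal went from 5166 to 6235 and from 1435 to 733, at 0.27 and -0.97, and a second probe gave 0.35 and -0.89. The mean of -0.35 was smaller than the SD of 0.88.

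The chains of laminin-511 showed a wide gap between arrays. Lamb1 (beta1) went from 31483 to 79250 on replicate 1 and from 15968 to 14066 on replicate 2, at 1.33 and -0.18, the highest replicate 1 ratio of any member. Lamc1 (gamma1) was at 1.22 and -0.23, and Lama5 (alpha5), the main alpha chain of many mature epithelial basement membranes, at 1.18 and -0.11. Lama4, the alpha chain of vessel laminins, was at 0.77 and -0.33, and Lamb2 at 0.54 and -0.21. The epithelial chains Lama3 (alpha3) and Lamb3 (beta3) were higher on both arrays by their brightest probes, by small amounts, with Lama3 at 0.20 and 0.43 and Lamb3 at 0.47 and 0.27. A second Lama3 probe gave -0.03 and 0.47. Neither gene passed the test. The median laminin chain was at 0.61 on replicate 1 and -0.20 on replicate 2.

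By their brightest probes, all 5 linkers of the basement membrane were at least 1.5-fold higher on replicate 1 (background 8.48%). On replicate 2 they were near or below 0. Dag1 encodes dystroglycan, a non-integrin laminin receptor, and had the largest mean of the 5. Its signal went from 12934 to 31818 and from 8001 to 8099, at 1.30 and 0.02, with a mean of 0.66 ± 0.91 (SD, n = 2 arrays; limma, adjusted p = 0.249). Nid2 was at 1.06 and -0.15, Agrn (agrin) at 0.99 and -0.09, Hspg2 (perlecan) at 0.94 and -0.50, and Nid1 at 0.82 and -0.41. Among the matrix glycoproteins, Fn1 (fibronectin) went from 33377 to 68645 on replicate 1 and from 15144 to 10799 on replicate 2, the opposite way. Tnc (tenascin C) went from 1088 to 1906 and from 251 to 257, at 0.81 and 0.04. By the brightest probes the SD exceeded the mean in all of these. For a second Tnc probe (0.96 and 0.22) it did not. Nor did it for a second Agrn probe (0.80 and 0.14) and a further Nid1 probe (0.49 and 0.10). That Nid1 probe was below 1.5-fold on replicate 1. In the remaining Nid1 probe and a second Hspg2 probe, the SD again exceeded the mean.

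Integrin alpha subunits other than Itga4 were above 0 on replicate 1 in all 11 cases (9653 of 19398 tested genes). By their brightest probe, 6 of them were so on both arrays (background 28.6%). Itga11, a collagen receptor subunit of fibroblasts, had the highest mean ratio of all members. Its signal went from 546 to 1155 and from 116 to 145, with ratios of 1.08 and 0.32 and a mean of 0.70 ± 0.54 (SD, n = 2 arrays; limma, adjusted p = 0.159). Itgav, the alpha subunit of RGD-binding receptors for fibronectin and vitronectin, went from 4140 to 8135 and from 1620 to 1804. Its ratios were 0.97 and 0.16 (limma, adjusted p = 0.356), and a second probe gave 1.12 and 0.23. Itga6, the laminin receptor subunit of hemidesmosomes, went from 11722 to 21133 and from 6331 to 6481, at 0.85 and 0.03 (limma, adjusted p = 0.571), and a second bright probe gave 0.65 and -0.14.

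The other collagen receptor subunits were Itga2, at 0.41 on each array, Itga10, at 0.13 and 0.08, and Itga1, at 0.68 and -0.44. Itga2 and Itga10 had nearly the same ratio on both arrays, and Itga1 did not. The laminin receptor subunits beside Itga6 were Itga3, at 0.48 and 0.30, and Itga7, a subunit typical of muscle, at 0.38 and -0.03. The RGD-binding subunits beside Itgav were Itga5, the fibronectin receptor, at 0.83 and -0.02, and Itga8, the nephronectin receptor, at 0.35 and -0.12. Npnt, which encodes nephronectin, was at 0.59 and -0.03 (limma, adjusted p = 0.742).

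Of the 7 beta subunits, 5 were higher on both arrays (background 28.6%), by small amounts on replicate 2. Itgb1 had signals of 25708 and 41760 on replicate 1 and 7524 and 7906 on replicate 2. Itgb6, an epithelial partner of alphav, was at 0.71 and 0.09, Itgb5, another partner of alphav, at 0.52 and 0.05, and Itgb4, the hemidesmosome partner of alpha6, at 0.22 and 0.07. Itgb3 was at 0.06 and -0.29 for its brightest probe and at 0.27 and -0.06 for the other, so that the sign of its mean depended on the probe. Itgb8 was the dimmest member, with control signals of 19.9 and 7.16 and ratios of 0.16 and -0.41, and its cyclopamine signal on replicate 2 was not well above background on most spots. The group median was 0.36 on replicate 1 and 0.07 on replicate 2. Over the 14 members with more than 1 probe, 14 of 15 further probes gave a mean of the same sign as the brightest, with a median difference of 0.08 and a largest difference of 0.31, that of Itga4. On replicate 2 alone, a further probe of Agrn, of Nid1 and of Itga6 differed in sign from the brightest. On replicate 1 alone, that of Lama3 did.

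Gene length moved with the ratios on replicate 1. When all genes with a known length were split into 10 equal groups by length, the shortest group (median 2.11 kb) had a median ratio of -0.32 there and the longest (median 204 kb) had 0.31, against -0.05 for both on replicate 2. The members are long genes, with a median of 73.1 kb against 21.4 kb for all tested genes, and 28 of 36 lay in the 3 longest groups. The part of gene length in the members' ratios was not tested. With the length trend removed, the median member ratio on replicate 1 went from 0.69 to 0.50 (0.02 for all tested genes). On replicate 2 it was -0.06 with and without the trend. The Itga4 mean became -0.97 with the trend removed (limma, adjusted p = 0.00751).

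**Figure D4:**
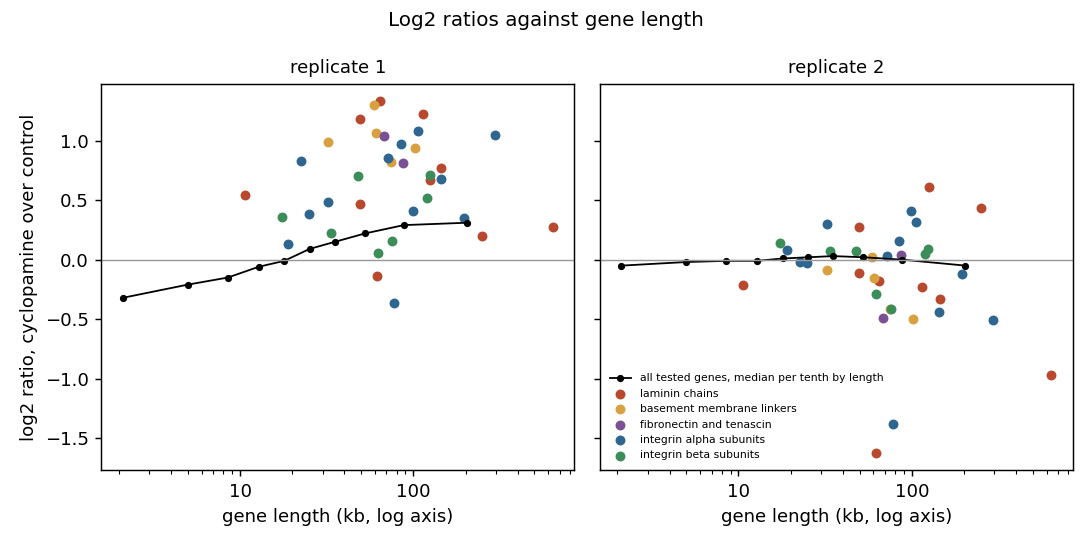
Log2 ratio of cyclopamine over control (vertical axis) against gene length in kb (horizontal log axis), replicate 1 on the left and replicate 2 on the right. The black line is the median of all tested genes in each of 10 groups by length, rising from -0.32 to 0.31 on replicate 1 and staying between -0.05 and 0.03 on replicate 2; points are the members, most of them above the line on replicate 1.

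Genes around the members were read from 6 lists, and none of their members passed the limma test or the study's rule in either direction (at an unadjusted limma p under 0.05, 2 of 85 tested were lower and 8 were higher, with 4.81% and 4.24% of all tested genes). The lists held 24 other basement membrane genes, 10 other integrin ligands, 23 integrin adaptors, 4 hemidesmosome genes, 19 genes of the dystroglycan complex and its glycosylation, and 7 leukocyte and platelet integrins, of which 5 were tested. The other basement membrane genes, which include the collagen IV chains, had a median of 0.52 on replicate 1, with -0.19 on replicate 2. Of the 24, 16 were higher on the first and lower on the second (background 21.1%). Integrin adaptors, the talins, kindlins and their partners, had medians of 0.35 and -0.14. Hemidesmosome genes had medians of 0.67 and 0.06, and their member Col17a1 was higher on both arrays at 0.54 and 0.68 (limma, adjusted p = 0.253). Sgca, a sarcoglycan of muscle cells in the dystroglycan complex, was the lowest of these genes, at -0.83 and -0.76 (limma, adjusted p = 0.0642).

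Markers of cell types gave the same split between arrays for some tissues and not for others. The 4 fibroblast markers had a median of 0.80 on replicate 1 and -0.27 on replicate 2, and their summed signal went from 220135 in control to 364987 in cyclopamine on the first array and from 110858 to 90493 on the second. The 5 endothelial markers had medians of 0.65 and -0.10. The 10 urothelial markers had medians of 0.22 and 0.16, and 7 of them were higher on both arrays (background 28.6%). So were Lama3 and Lamb3 by their brightest probes. The 6 smooth muscle markers had medians of -0.12 and -0.55, and all were lower on replicate 2 (9710 of 19398 tested genes). All of these markers had a processed signal above background in the 4 channels. The part of these cell types in the members' ratios was not tested.

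**Figure D5:**
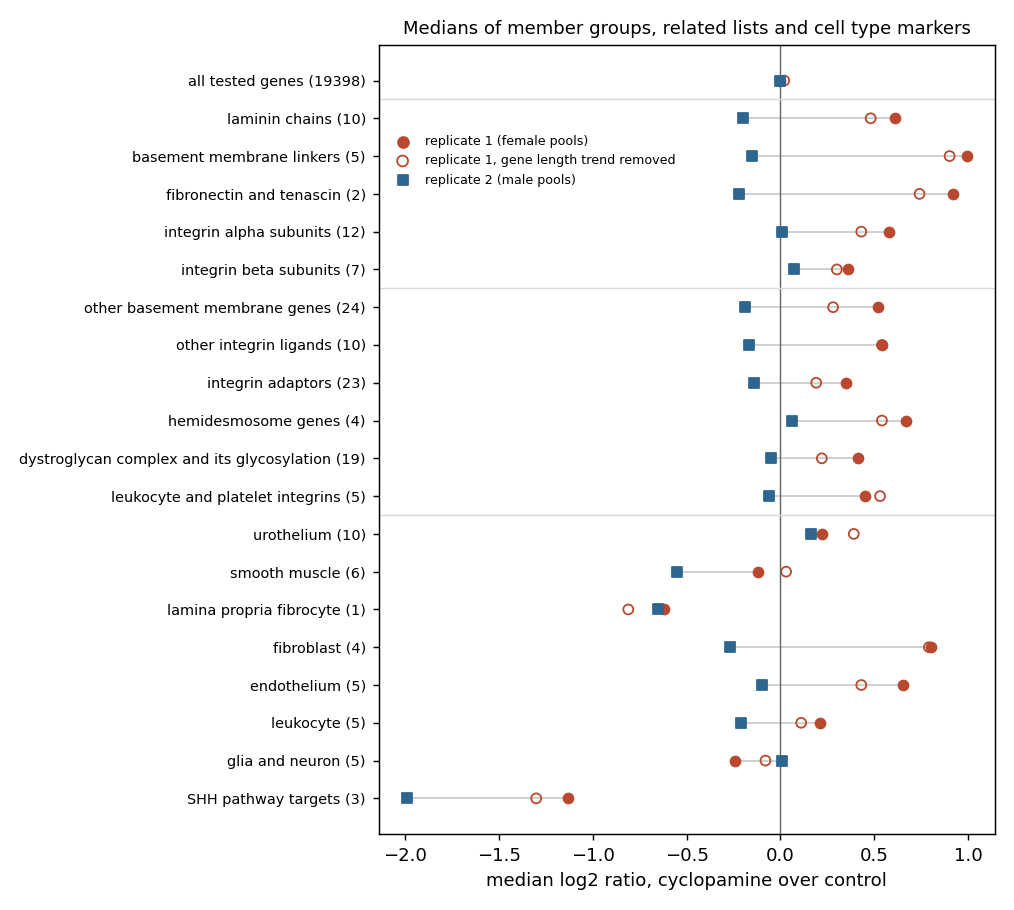
Median log2 ratio of cyclopamine over control (horizontal axis) for all tested genes, the member groups, the related lists and the cell type markers, with the number of tested genes in parentheses. Filled circles are replicate 1, open circles replicate 1 with the gene length trend removed, and squares replicate 2; laminin chains lie at 0.61 and -0.20, beside endothelial markers at 0.65 and -0.10, other basement membrane genes at 0.52 and -0.19 and fibroblast markers at 0.80 and -0.27.

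Promoter sequences from RefSeq (GRCm38.p6, from 250 bases before to 50 after the start) were found for 25 members. The 9 letters TGGGTGGTC, a binding sequence of GLI factors, were searched on both strands. They occurred in 0 of the 31 promoters of these members and in 0.253% of all 32851 promoters. For a sequence this rare, 0 was the likely outcome in so few promoters, so nothing is drawn from it.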

How the data were processed

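Total RNA of pooled ureters was amplified, labelled and hybridised to 2 two-colour Agilent arrays of the same slide and scan. Per the file headers, the deposited intensity values come from Agilent Feature Extraction 12.2.0.7 (the processing notes in the labels name 10.7.3.1), with background subtraction, detrending, a linear and LOWESS dye step and surrogate values for dim spots. The authors' deposited log10 ratio always puts red over green, whichever dye carried cyclopamine. The deposited series table holds a score, which by its correlation with the turned ratios (0.978 and 0.922) is a signed fold of cyclopamine over control. The methods give ethanol and the labels DMF as solvent.

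Control spots and outlier spots (2.89% and 3.15%) were left out, and up to 4 spots per probe were averaged on the log2 scale. Tested were probes with a share of 0.5 or more of spots well above background, in control or in cyclopamine, on both arrays. limma 3.58.1 (R 4.3.3; +1 and -1 for the dyes, no intercept) was run on 25975 probes, with p-values adjusted by Benjamini-Hochberg. With 1 residual degree of freedom the variance rests on the prior (51.9 degrees of freedom), which is drawn from all tested probes. The SE was thus 0.23 for Itga2, with an SD of 0.0, and 0.25 for Lamc3, with an SD of 1.05. The p-values therefore use a spread between these pools that is largely shared over probes, and little of a gene's own. The number of arrays limits the precision. Gene names and lengths came from RefSeq (GRCm38.p6), and probe positions from the array annotation (mm9).

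Members and lists were chosen with earlier results of these data known. Named with full values were Itga4, members called or past the study's rule, members opposite by 1.5-fold, and the 5 largest means per direction among those alike on both arrays. Lists were described by counts and medians, and a few of their genes were named with values, Madcam1, Col17a1 and Sgca after these had been seen. A planned single-gene result is not reported here. The steps were tested on simulated data, and the alternatives are given in the closing section.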

Additional observations from a re-analysis of the deposited data

Results flagged for a closer look

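By the brightest probe, the female pools (replicate 1) were above 0 and the male pools (replicate 2) below it in 18 members. With 1 array per sex this was not tested and cannot be told apart from dye orientation. The difference, replicate 1 minus replicate 2 on the log2 scale, was 1.56 for Itga9, 1.53 for Fn1, 1.51 for Lamb1, 1.44 for Lamc1 and Hspg2, 1.29 for Lama5, 1.24 for Lama2, 1.23 for Nid1, 1.22 for Nid2, 1.12 for Itga1, 1.09 for Lama4 and 1.08 for Agrn. It was below 1 for the others, at 0.85 for Itga5, 0.75 for Lamb2, 0.57 for Itgb8, 0.47 for Itga8, 0.42 for Itga7 and 0.35 for Itgb3. A second Agrn probe (0.80 and 0.14) and a further Nid1 probe (0.49 and 0.10) were above 0 on both arrays. The other further probes of these 18 members kept the split. Outside the 18, a second Itga6 probe (0.65 and -0.14) also showed it.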

How the results depend on the processing

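The direction of Itga4, Lama1, Lamc3, Dag1, Itga6, Itga11 and Itgav was the same in every alternative that was run. Apart from Itga4, they were picked among members alike on both arrays, so leaving out an array could not turn their sign. The 18 members with opposite signs on the 2 arrays turn sign with the array left out, and were not followed singly here. Itga4 kept its limma call in 3 of 7 alternatives with a test (normexp offset 10, the length trend removed and an intensity-dependent prior) and lost it with normexp offset 50 (-0.85), the series table (-0.88), no filter on dim probes (-0.87) and 4 channels without a replicate block (-0.87). Members called lower, 1 as reported, were 0 with normexp offset 50, the series table and the 4 channels, and 2 with the gene length trend removed or an intensity-dependent prior, where Lamc3 was added. Without the dim filter the count was also 1, but the member was Lamc3. Members called higher were 0 in all of these. Under the study's rule 1 member was higher as reported, and 0 with either normexp correction, the series table, the length trend removed, a control signal over 200 or a fold limit of 2. With the fold limit set on the mean ratio 2 were lower (Itga4 and Lamc3) and 3 higher (Lama1, Dag1 and Itga11). The share of all genes past that limit was not counted, so these counts have no background. Without replicate 1, 3 members were lower and 1 higher by at least 1.5-fold (591 and 404 of 19398 tested genes, with no signal limit). Without replicate 2, 0 were lower and 20 higher (1957 and 1644 of 19398 tested genes). Leaving out an array in turn gave an Itga4 ratio from -1.38 to -0.36 and a member median from -0.06 to 0.69. The median of 0.30 over both arrays thus rested on replicate 1, and its sign turned without that array. The ratios are already paired within an array. The signals of replicate 2 were lower, so a common limit of signal was stricter there.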
